A study of Mus musculus with 12 samples.

Results

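Acetylation of histone H3 at lysine 27 (H3K27ac) was profiled by ChIP-seq in mouse forelimb buds 6 h after WNT secretion was blocked, and the wild-type control and C59-treated libraries were compared region by region. All H3K27ac ChIP libraries of the series were used, which are 4 of its 12 samples, with 2 replicates per treatment. Pregnant wild-type Swiss Albino mice were injected at E10.5 with the DMSO solvent (wild-type control) or with C59 at 10 µg per g body weight, and each library pooled 20 forelimb buds from embryos of both sexes. The buds were whole, so that mesenchyme, ectoderm, vessels and muscle precursors contributed together, and fewer acetylated cells cannot be told apart from less acetylation per cell. Overlapping peaks of the 4 replicate lists were joined into 34047 regions, of which 17475 held a peak of every list and form the set compared here. Regions with a summit less than 1 kb from a transcription start site (TSS) were called promoter regions (12174) and the others distal regions (5301).

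C59 inhibits porcupine, the acyltransferase that lipid-modifies WNT ligands, without which they are not secreted. Canonical WNT signals stabilise β-catenin, which joins TCF/LEF factors on DNA and recruits co-activators, among them the acetyltransferases that place H3K27ac. The mark lies at active promoters and enhancers, and in the early limb bud WNT signals act in the outgrowth, dorso-ventral identity and restraint of chondrogenesis of the mesenchyme. The comparison asks how H3K27ac at promoters and distal regions differed 6 h after C59, the time at which β-catenin chromatin complexes were also profiled.

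The tissue was checked by the promoters of marker genes. All 10 limb mesenchyme markers had a region in every list, among them Msx1, Twist1, Lhx9 and the forelimb gene Tbx5. The same held for 3 of 19 limb ectoderm markers (Epcam, Tfap2a and Perp), 4 of 10 muscle precursor markers (among them Lbx1 and Met), 1 of 14 blood markers (Tal1), 1 of 3 hindlimb markers (Tbx4) and none of the 10 endothelial, 10 neural and 8 liver and gut markers. Between 4 and 8 ectodermal and 2 and 3 blood markers were called per library, and 1 endothelial marker in each wild-type control list against 3 in each C59-treated list. Dlx5, an apical ectodermal ridge gene, was called in both wild-type control lists (folds of 4.61 and 3.60) and in neither C59-treated list, whereas the endothelial gene Pecam1 was called only in the C59-treated lists (4.83 and 4.73). The 3 ectodermal markers in every list differed in fold by -0.10 to 0.48 on the log2 scale, with a median of 0.18. The blood and endothelial progenitor factor Tal1 had folds of 3.07 and 3.02 in its region of the wild-type control libraries and 4.01 and 5.22 in the C59-treated libraries (adjusted p = 0.32, limma). Of the other blood markers, Epor was called in the wild-type control lists alone and Spi1 in the C59-treated lists alone. How far such cells contribute to the other regions was not tested.

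Sequences are printed first for regions where lower H3K27ac coverage and a β-catenin summit coincided. Of the 208 regions that lost summit coverage under all 3 scalings used below, 8 (3.85%) held a wild-type β-catenin summit with a TCF/LEF core within 100 bp, which is near the share of all compared regions (603 of 17475, 3.45%). These are the promoters of Fam185a, Tnfrsf19, Tfap4, Bcar3 and Sept9 and distal regions nearest to Gadd45g, Castor2 and Cdc14b. The windows of 200 bp around the β-catenin summit are shown for Tnfrsf19, Fam185a, Gadd45g and Castor2, and for Axin2, the universal WNT feedback gene, whose summit coverage did not pass the test. Letters are those of the plus strand of GRCm38 from 5′ to 3′, and capitals mark ATCAAAG or TTCAAAG on either strand (CTTTGAT and CTTTGAA when read on the other strand).

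Tnfrsf19 promoter, chr14:61046194-61046393, 2 cores: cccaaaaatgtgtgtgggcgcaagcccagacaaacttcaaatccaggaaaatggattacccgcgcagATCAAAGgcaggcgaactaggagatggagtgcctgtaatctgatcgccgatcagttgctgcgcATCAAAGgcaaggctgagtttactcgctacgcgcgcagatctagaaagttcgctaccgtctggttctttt

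Fam185a promoter, chr5:21424908-21425107: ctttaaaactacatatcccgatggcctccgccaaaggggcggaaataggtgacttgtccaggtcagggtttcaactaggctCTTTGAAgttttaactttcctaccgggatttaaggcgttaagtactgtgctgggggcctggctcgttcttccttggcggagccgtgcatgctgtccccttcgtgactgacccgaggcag

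Gadd45g, distal region 169 kb from the TSS, chr13:52015360-52015559: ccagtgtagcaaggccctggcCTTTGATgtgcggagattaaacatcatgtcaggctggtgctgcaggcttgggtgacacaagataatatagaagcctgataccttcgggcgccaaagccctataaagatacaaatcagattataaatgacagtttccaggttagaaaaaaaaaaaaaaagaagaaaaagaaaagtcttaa

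Castor2, distal region 99.6 kb from the TSS, chr5:134000043-134000242: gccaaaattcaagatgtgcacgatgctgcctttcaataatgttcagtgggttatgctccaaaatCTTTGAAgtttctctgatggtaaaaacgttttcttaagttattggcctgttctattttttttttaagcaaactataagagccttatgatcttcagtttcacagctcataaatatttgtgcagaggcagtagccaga

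Axin2 promoter, chr11:108921158-108921357, 2 cores: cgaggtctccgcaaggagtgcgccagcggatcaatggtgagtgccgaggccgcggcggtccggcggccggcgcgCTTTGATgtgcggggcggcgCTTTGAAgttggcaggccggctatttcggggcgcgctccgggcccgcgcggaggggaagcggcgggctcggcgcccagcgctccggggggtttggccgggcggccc

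A core stood within 100 bp of 28.6% of all 16193 wild-type β-catenin summits and of 17.7% of the 3509 that lay in a compared region. The same windows at the highest H3K27ac summit held one in 276 of the 12174 promoter regions and 377 of the 5301 distal regions (7.11%). Of these 9 summits, that of Axin2 alone lay inside a β-catenin region of the C59-treated consensus. A match describes the letters and is not evidence of a bound site.

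The numbers of summits overlapped between the treatments, but the genome-wide background coverage was higher in both C59-treated libraries. The lists held 35218 and 37886 summits in the wild-type control and 37181 and 33131 in the C59-treated libraries, and the genome-wide background coverage solved from them was 2.69 and 2.88 against 3.17 and 2.98 fragments. The fragment counts printed below are not scaled for this difference. Peak calls at promoters were largely shared between the lists, and most distal calls were not, with 8179 distal regions called in 1 list alone. Of 15362 promoter regions, 79.2% were in all 4 lists, against 28.4% of 18685 distal regions. Regions of both wild-type control lists and neither C59-treated list numbered 258 at promoters and 772 at distal sites, and the reverse pattern 118 and 614. These 1-sided regions were weak, with median folds from 3.52 to 3.70, close to the limit of peak calling, so that a missing call does not show that the mark was absent.

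By fold, the level of H3K27ac over all compared regions overlapped between the treatments. The highest summit fold of a region, the ratio of coverage to the expected coverage of the same library, had promoter medians of 9.67 and 9.97 in the wild-type control and 9.96 and 9.40 in the C59-treated libraries. The distal medians were 4.75 and 4.78 against 4.93 and 4.73. At distal regions the treated values lay on both sides of the control values, and at promoter regions 1 lay between the control values and 1 below both. The median log2 fold changed by -0.02 at promoter regions (p = 0.67) and 0.02 at distal regions (p = 1.0), by the two-sided exact permutation test over libraries, which with 2 against 2 cannot go below 0.33. The step from distal to promoter regions was 1.02 and 1.06 on the log2 scale in the wild-type control and 1.01 and 0.99 in the C59-treated libraries, a gap of -0.04 (exact p = 0.33) without overlap. Summit coverage, in fragments and solved from the fold and the p-value of each row, was set over the genome-wide background of the library, and its median over all regions did not overlap, at 4.25 and 4.25 against 4.19 and 4.04 on the log2 scale (difference -0.13, exact p = 0.33). At promoter regions it was 4.82 and 4.85 against 4.74 and 4.60 (difference -0.16, exact p = 0.33), and at distal regions 3.16 and 3.17 against 3.19 and 3.07 (difference -0.03, exact p = 1.0).

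**Figure D1:**
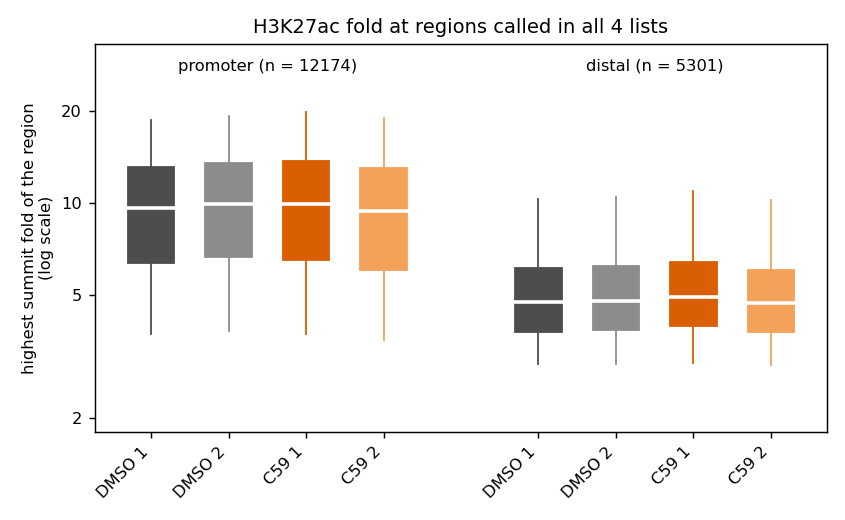
Highest summit fold (log scale) of the 12174 promoter and 5301 distal regions in each of the 4 libraries. White lines are medians, boxes the middle range between the lower and upper quartile, and whiskers the 5th and 95th percentiles. The promoter medians lie between 9.40 and 9.97 and the distal medians between 4.73 and 4.93, with no separation of DMSO from C59.

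Differences between libraries of different treatment were somewhat larger than those between replicates. The median absolute log2 difference of the fold was 0.123 and 0.125 between replicates at promoter regions and from 0.143 to 0.155 between treatments. At distal regions it was 0.193 and 0.198 against 0.214 to 0.221. For summit coverage the values were 0.142 and 0.148 against 0.196 to 0.206 at promoter regions and 0.213 and 0.221 against 0.269 to 0.283 at distal regions. In each of the 4 settings, every pair across treatments differed more than both replicate pairs.

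**Figure D2:**
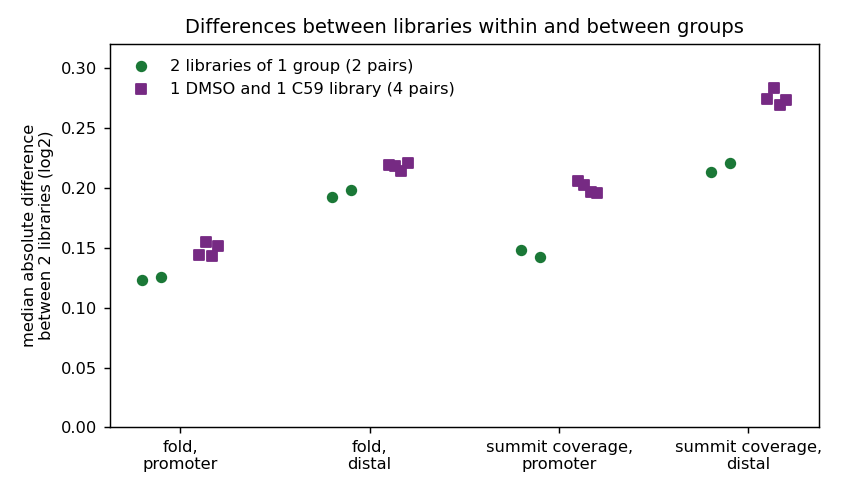
Median absolute log2 difference between 2 libraries for the fold and the summit coverage, at promoter and distal regions. Circles are the 2 pairs of replicates and squares the 4 pairs of a DMSO with a C59 library, and in each column all squares lie above both circles.

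By fold, 3 regions of 17475 passed the test (limma, adjusted p under 0.05), and none of them lay at a gene of the WNT pathway. At promoter regions 2 were higher after C59 (0.0164%) and 0 lower (0.0%), and at distal regions 0 were higher (0.0%) and 1 lower (0.0189%). Without adjustment, 900 promoter regions were higher and 558 lower at p under 0.05, and 374 and 187 distal regions. Both treated values lay above both control values at 3200 promoter regions (26.3%) and below at 2141 (17.6%), and at 1333 (25.1%) and 838 (15.8%) distal regions.

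The clearest change in fold lay on the Y chromosome. The promoter of Kdm5d (chrY:897553-898240), a Y-linked histone demethylase, had folds of 5.42 and 5.66 in the wild-type control and 19.4 and 13.8 in the C59-treated libraries, which is 3.01-fold higher (log2 difference 1.59, SE 0.149, adjusted p = 0.0108). The summed coverage of the 7 regions of the Y chromosome was 166 and 158 against 361 and 275 fragments. Uty, Ddx3y and a region near Uba1y were called higher by summit coverage with Kdm5d. The promoter of Eif2s3y was not, with 32 and 22 against 35 and 34 fragments. Nor were the regions near Gm47283, with 12 and 13 against 13 and 15 (chrY:90797744-90798223) and 23 and 16 against 26 and 15 (chrY:90810201-90810859). The regions near Gm47283 lie far from the others on the chromosome. Whether their sequence is specific to the Y was not tested. By comparison, the 499 regions of the X chromosome had a median log2 difference of 0.04. The share of male embryos in the pools is not given in the sources used here and cannot be told apart from the treatment.

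A region at the histone pseudogene Hist1h2al (chr13:51202664-51203067) rose from 10.3 and 10.9 to 18.2 and 17.2 (log2 difference 0.77, adjusted p = 0.0237). A distal region of the X chromosome (chrX:170004170-170004634), nearest to Gm21887, fell from 19.8 and 17.2 to 9.83 and 9.06 (log2 difference -0.94, adjusted p = 0.0237). Hist1h2al and the region near Gm21887 may share sequence with near-identical copies, so that the assignment of their reads is uncertain. Without the sex chromosomes no region passed, with limma and Benjamini-Hochberg adjustment over the 16969 regions of chromosomes 1 to 19, of which 1997 had an unadjusted p under 0.05.

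The regions next in order did not pass, with adjusted p from 0.0547 to 0.207 for the 10 of smallest p in each direction and class, and are given as values. The translation regulator gene Bzw1 had promoter folds of 11.02 and 10.9 in the wild-type control and 17.2 and 17.4 in the C59-treated libraries (adjusted p = 0.0547), and its paralogue Bzw2 10.6 and 10.4 against 16.1 and 15.1 (adjusted p = 0.119). Axin2 followed with 10.52 and 10.6 against 16.7 and 15.5 (log2 difference 0.63, SE 0.0913, adjusted p = 0.0741). Each of these promoters had a higher fold in both treated libraries than in both controls. In the other direction Fam185a had 11.5 and 13.5 against 5.51 and 6.29 (adjusted p = 0.0741) and the centriolar kinesin gene Kif24 13.5 and 13.5 against 7.56 and 8.29 (adjusted p = 0.151). Among distal regions, one 67.0 kb upstream of Nkd1, a feedback inhibitor of WNT signalling, had 11.8 and 11.2 against 15.8 and 16.3 (adjusted p = 0.172), and it held a β-catenin summit with a core. Its summit coverage was 109 and 119 against 118 and 117 fragments (log2 difference 0.04), and its expected coverage fell by 0.52 on the log2 scale.

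Summit coverage called far more regions than the fold. With each library centred on its median, 562 promoter regions were higher after C59 (4.62%) and 375 lower (3.08%), and 216 distal regions were higher (4.07%) and 64 lower (1.21%). The split depends on the scaling. Of the calls, 63.9% were higher with centring, 15.5% when coverage was divided by the genome-wide background of the library and 45.6% after quantile normalization, which gave 116 higher and 634 lower, and 202 higher and 241 lower. Scaling by the background moved the median of all regions by -0.13 on the log2 scale. No called region changed sign, and 48 promoter and 52 distal regions were higher and 180 and 28 lower under all 3 scalings. Of these, 35 and 22 and 56 and 5 also passed without any 1 of the 4 libraries, in fits where the lone library was taken to vary like the others, and the next paragraphs name those first. They were chosen after their values were seen.

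**Figure D3:**
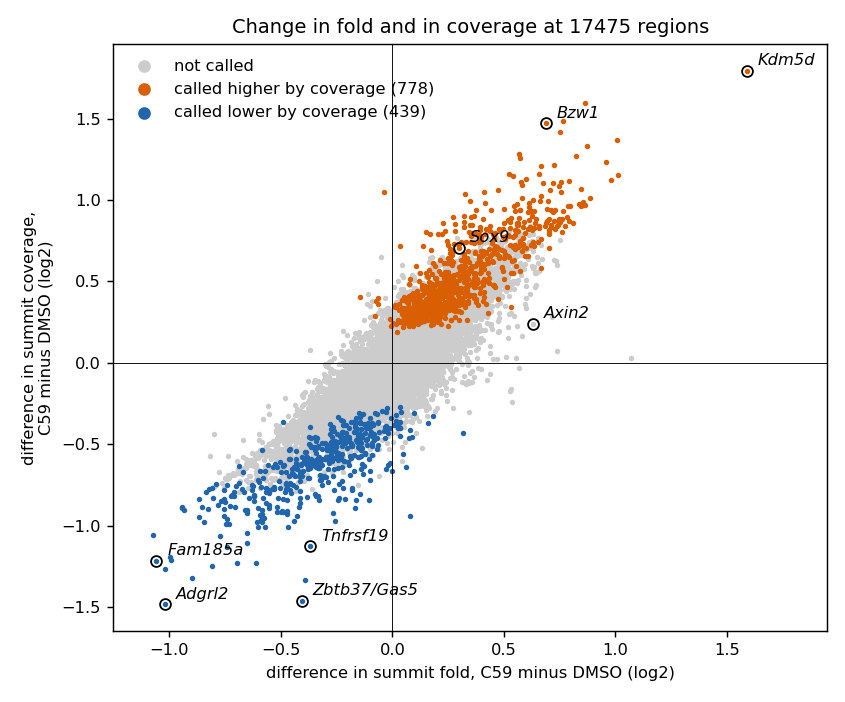
Log2 difference between C59 and DMSO in the highest summit fold (horizontal) and in summit coverage (vertical) for each of the 17475 regions. Orange points are the 778 regions called higher and blue points the 439 called lower by coverage. Axin2 lies to the right of the cloud, with a fold difference of 0.63 and a coverage difference of 0.24, and Zbtb37/Gas5 and Tnfrsf19 lie below it.

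The promoter of Tnfrsf19 (Troy), a receptor gene and WNT target (chr14:61045559-61046895), had summits of 72 and 74 fragments in the wild-type control and 39 and 29 in the C59-treated libraries (log2 difference -1.13, SE 0.191, adjusted p = 0.000131). It is the region with a β-catenin summit and 2 cores whose sequence is given above. A distal region 67.0 kb from the TSS of Lmx1b, the transcription factor gene of dorsal limb identity (chr2:33707300-33708142), had 42 and 43 against 18 and 16 fragments (log2 difference -1.33, adjusted p = 0.000289). Boc encodes a hedgehog co-receptor, and a region 27.5 kb from its TSS (chr16:44530724-44531710) had 39 and 42 against 14 and 19 (log2 difference -1.32, adjusted p = 0.000689). The groups did not overlap at any of these regions. Their folds fell less and did not pass, with log2 differences of -0.37 at Tnfrsf19, -0.39 at Lmx1b and -0.90 at Boc.

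A promoter region between Zbtb37 and the non-coding snoRNA host gene Gas5 (chr1:161035185-161036858) had 226 and 235 fragments in the wild-type control and 90 and 79 in the C59-treated libraries, the steepest loss among promoter regions (log2 difference -1.46, SE 0.117, adjusted p = 2.43e-12). A neighbouring promoter region (chr1:161034227-161034896) had 112 and 141 against 141 and 118 fragments (log2 difference 0.03). Its folds of 3.53 and 4.19 against 7.96 and 7.86 did not pass (limma, adjusted p = 0.151). The folate carrier gene Slc19a1 had 100 and 121 against 67 and 38 (log2 difference -1.13, adjusted p = 1.81e-05), and the phosphatase gene Ppp5c 108 and 108 against 51 and 50 (log2 difference -1.11, adjusted p = 1.27e-05). Fam185a had 46 and 61 against 22 and 24 (log2 difference -1.21, adjusted p = 0.000476). At Gadd45g and Castor2, whose windows are given above, coverage fell by 1.01 and 0.99 on the log2 scale, but passed in only 2 of the 4 fits without a library.

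Beside Kdm5d and Hist1h2al, the largest gain among promoter regions under all 3 scalings lay at Bzw1 (chr1:58392427-58393871), which had 209 and 228 fragments in the wild-type control and 657 and 566 in the C59-treated libraries (log2 difference 1.47, SE 0.0808, adjusted p = 2.94e-18). A distal region (chr19:56086965-56087750) had 13 and 21 against 63 and 40 (log2 difference 1.59, adjusted p = 3.79e-05). Its neighbour (chr19:56085954-56086777) had 19 and 26 against 54 and 55. The nearest TSS, 189 kb from the first, is an alternative one of Tcf7l2, which encodes a TCF factor. The Tcf7l2 promoter region in all lists lies further upstream (chr19:55742280-55744331). Distal regions near the GATA factor gene Gata4 (21 and 33 against 63 and 65; log2 difference 1.27, adjusted p = 0.000135) and the axon guidance receptor gene Robo2 (10 and 13 against 41 and 23; log2 difference 1.42, adjusted p = 0.000583) rose likewise.

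The median GC content was 66.9% at promoters called higher, 65.4% at those called lower and 65.2% at all promoter regions. Promoters called higher were wider (1040.5 against 883 bp) and deeper (214 against 77.9 fragments) than all promoter regions, and those called lower had medians of 901 bp and 92.0 fragments. The fold moved in the same direction at 554 of the 562 higher and 352 of the 375 lower promoter calls, and at all distal calls, with smaller differences.

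The fold is the coverage over the expected coverage, which is read from the same library. Without input, the expected coverage is the larger of the genome-wide background and the average over 10 kb around the summit, and it includes the acetylation of the neighbourhood. It was compared as a further measure, chosen after the data were seen, at the 14519 regions where it stood above the background in every library. At promoter regions 1233 were higher (11.8%) and 1266 lower (12.1%), and at distal regions 740 were higher (18.4%) and 369 lower (9.15%). Without 1 library these counts ranged from 606 to 1216 and 721 to 1164 at promoter regions and from 459 to 551 and 205 to 290 at distal regions. Summits within 10 kb share this value and are not independent.

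At the Axin2 promoter (chr11:108920358-108922414) summit coverage was 375 and 416 fragments in the wild-type control and 537 and 410 in the C59-treated libraries (log2 difference 0.24, adjusted p = 0.0516), while the expected coverage fell from 34.7 and 38.2 to 31.3 and 25.5 (log2 difference -0.39, adjusted p = 1.97e-11). The summit coverage of the groups overlapped, and the expected coverage did not. The TCF/LEF factor gene Lef1 had the same pattern, with promoter folds of 6.42 and 7.59 against 8.81 and 8.62, coverage of 140 and 177 against 157 and 146, and an expected coverage that fell from 21.0 and 22.5 to 16.9 and 16.1 (log2 difference -0.42). Msx1, a BMP and WNT responsive homeobox gene, had folds of 3.94 and 5.69 against 7.13 and 6.40 and an expected coverage that fell from 14.5 and 16.9 to 10.4 and 7.76 (log2 difference -0.83). At Bmp4 the expected coverage fell from 12.5 and 13.2 to 9.80 and 9.25 (log2 difference -0.46), with promoter folds of 3.48 and 4.00 against 4.17 and 4.49. Of the 3 Axin2 distal regions in all lists, none was called by fold or coverage, and their folds differed by 0.17 to 0.31 on the log2 scale. A further distal region 18.4 kb from an Axin2 TSS (chr11:108961800-108962605) had folds of 5.27 and 4.25 in the wild-type control and no peak in either C59-treated list.

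**Figure D4:**
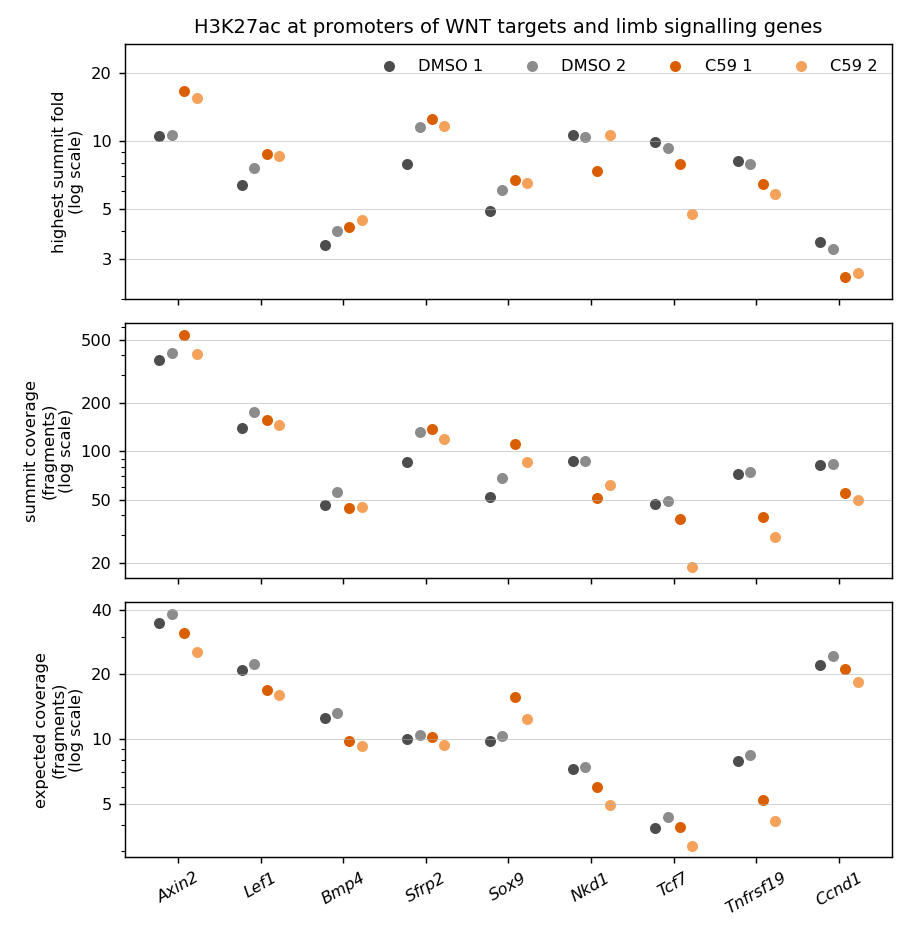
Highest summit fold, summit coverage and expected coverage (fragments, all on log scales) of 9 promoters in the 4 libraries. Grey points are DMSO and orange points C59. At Axin2 the fold is higher (16.7 and 15.5 against 10.52 and 10.6) while the expected coverage is lower, and at Tnfrsf19 all 3 measures are lower after C59.

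Among the 29 WNT feedback and target genes, 18 had a promoter region in all 4 lists. By summit coverage 4 were lower (Tnfrsf19, Tcf7, Ccnd1 and Nkd1) and 1 higher (Tcf7l2), which is 22.2% and 5.56% beside 3.08% and 4.62% of all promoter regions, with a median log2 difference of -0.07 against 0.02 at all promoter regions. Tcf7, which encodes a TCF factor, had 47 and 49 fragments in the wild-type control and 38 and 19 in the C59-treated libraries (log2 difference -0.85, adjusted p = 0.0187), and the cyclin gene Ccnd1 82 and 84 against 55 and 50 (log2 difference -0.67, adjusted p = 0.00889). Nkd1 had 87 and 87 against 51 and 62 (log2 difference -0.64, adjusted p = 0.0155). None of these groups overlapped. Without 1 library, from 1 to 3 genes of the list were lower, and only Tnfrsf19 passed in all 4 such fits. Tcf7 and Nkd1 did not pass after quantile normalization, and Tcf7l2 only with centring. A further promoter region of Mycn (chr12:12939390-12940513) had 74 and 91 against 57 and 46 fragments (log2 difference -0.69, adjusted p = 0.00801), beside one at 109 and 108 against 151 and 126. A second Ccnd1 promoter region (chr7:144940137-144940500) had 54 and 53 against 57 and 45 fragments (log2 difference -0.09). In the list, the expected coverage was lower at 9 of 17 promoters and higher at 1, beside 12.1% and 11.8% of all promoter regions. Of 39 distal regions nearest to 12 genes of the list, 5 were higher by coverage (12.8%) and 0 lower, beside 4.07% and 1.21% of all distal regions. Under all scalings 3 of these held, among them the pair assigned to Tcf7l2 by its nearest TSS. The regions of that pair adjoin (chr19:56085954-56086777 and chr19:56086965-56087750) and are not independent, so that the share counts neighbouring regions separately.

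Of 32 WNT ligand and receptor genes 18 were measured, among them Wnt5a, 8 Frizzled receptor genes, Lrp5, Lrp6, Porcn, Wls and Ctnnb1. Of these 18, 0 passed by fold or by coverage. The expected coverage was lower at 2 of 16 and higher at 1, beside 12.1% and 11.8% of all promoter regions. Porcn, which encodes the target of C59, differed by 0.03 in fold and Ctnnb1, the β-catenin gene, by 0.05 (log2). The ectodermal ligand genes Wnt3, Wnt6 and Wnt7a had no promoter peak in any list.

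The genes selected by the study from RNA-seq of separate forelimb buds were read next. That selection used other libraries but the same treatment, so that these lists are not independent of the findings of the study. Of the 232 genes of RNA cluster A, whose transcripts fell quickly after C59, 106 had a promoter region in all lists, 15 were lower by summit coverage (14.2%) and 0 higher, beside 3.08% and 4.62% of all promoter regions. The median log2 difference was -0.18 with centring and -0.31 with scaling to the background, against 0.02 and -0.12 at all promoter regions, and 73 of 106 values were negative. The median difference in fold was -0.01, against 0.02 at all promoter regions. By fold 29 members were higher and 29 lower in both treated libraries than in both controls, beside 26.3% and 17.6% of all promoter regions. Without 1 library, between 5 and 9 members passed as lower, and 6 did under all 3 scalings.

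Beside Tnfrsf19, Tcf7 and Nkd1, the members that lost coverage include Lrrc3b, Ddx21, Ung, Tmem97, Aunip, Slc25a33, Nme1, Ctps, Twist2 and Hspd1. The nucleolar helicase gene Ddx21 had 77 and 70 fragments in the wild-type control and 37 and 38 in the C59-treated libraries (log2 difference -0.98, adjusted p = 0.000794), and the CTP synthase gene Ctps 203 and 204 against 148 and 141 (log2 difference -0.50, adjusted p = 0.00261). Both lost their call without 1 of the 4 libraries. The expected coverage was lower at 43 of 87 members and higher at 3, beside 12.1% and 11.8% of all promoter regions, and from 32 to 38 were lower without 1 library. Distal regions nearest to cluster A genes numbered 110, of which 2 were lower and 2 higher by coverage (1.82% each), beside 1.21% and 4.07% of all distal regions. Of the 26 measured genes with lower transcripts at 6 h, 3 lost coverage (11.5%, Tnfrsf19, Nkd1 and Twist2) and 0 gained it. Among all promoter regions these shares were 3.08% and 4.62%. The expected coverage was lower at 15 of 21 and higher at 1, beside 12.1% and 11.8% of all promoter regions.

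RNA cluster B holds genes whose transcripts rose after C59 and RNA cluster C genes whose transcripts fell late. In cluster B 7 of 108 measured promoters were higher and 0 lower by coverage, and in cluster C 2 of 63 were higher (H3c3 and H2bc13) and 0 lower. The shares of 6.48% and 3.17% are near the 4.62% of all promoter regions. The cluster B members were Sox9, Abca1, Rasl11b, Rps2, Fat4, Npas3 and Tcp11l2, and none passed in all 4 fits without a library. Sox9, the master regulator of chondrogenesis, rose from 52 and 68 to 111 and 86 fragments (log2 difference 0.71, SE 0.158, adjusted p = 0.00345), with an expected coverage that rose from 9.78 and 10.3 to 15.7 and 12.3, and folds of 4.92 and 6.11 against 6.72 and 6.52 (adjusted p = 0.558). Of 24 distal regions nearest to Sox9, 9 were in all lists and 0 were called. Bmper, a BMP modulator gene of the same cluster, had folds of 6.78 and 5.66 against 3.59 and 3.77 (adjusted p = 0.251).

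**Figure D5:**
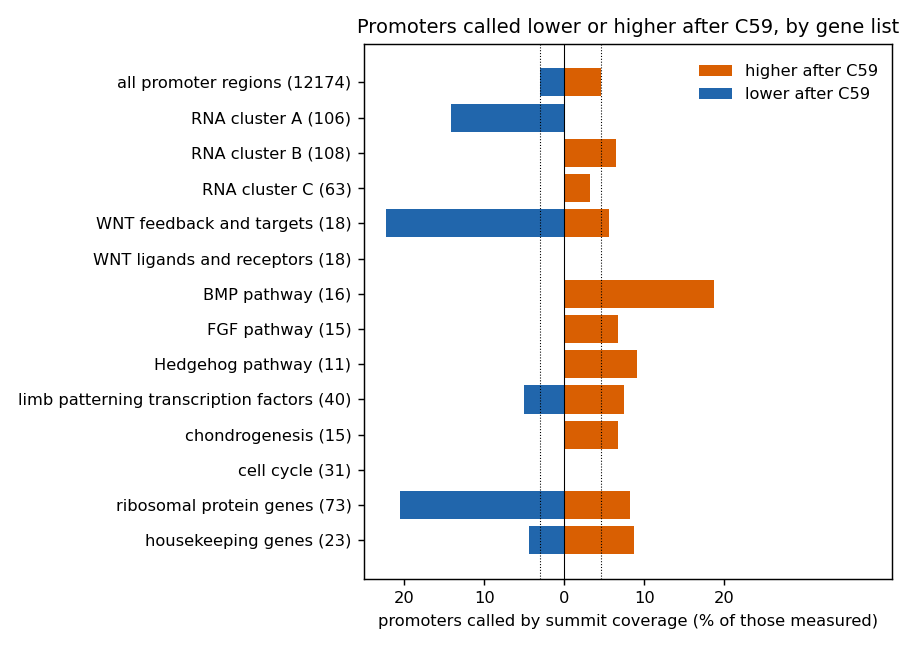
Share of measured promoters called lower (blue, left) or higher (orange, right) after C59 by summit coverage in each gene list, with the number measured in parentheses. Dotted lines mark all promoter regions (3.08% lower, 4.62% higher). RNA cluster A reaches 14.2% lower with none higher, and ribosomal protein genes 20.5% lower and 8.22% higher.

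By coverage 3 of 16 BMP pathway promoters were higher (18.8%, beside 4.62% of all promoter regions), including the receptor gene Bmpr1a and the target Id1, 1 of 15 of the FGF pathway (6.67%, the feedback inhibitor gene Spry2) and 1 of 11 of the Hedgehog pathway (9.09%, the co-receptor gene Cdon), and none was lower. Cdon had 264 and 290 fragments against 415 and 337 (log2 difference 0.43). All of these calls were lost when coverage was scaled to the background. Among 40 limb patterning transcription factors 2 were lower (5.0%, Hoxd12 and Twist2) and 3 higher (7.5%, among them Tbx18 and Hoxd8), beside 3.08% and 4.62% of all promoter regions, and none held under all scalings. No list held a promoter peak of Fgf8 or Shh, and Grem1 had folds of 4.20 and 3.98 in the wild-type control, none in one C59-treated list and 4.02 in the other. Bmp2 was called at 3.79 and 5.65 and in 1 C59-treated list at 4.53, and Sfrp2 had 7.93 and 11.6 against 12.5 and 11.6. Sulf1, which encodes a heparan sulphate sulphatase, had 5.07 and 4.47 against 4.02 and 5.49 at a promoter region at chr1:12835672-12836763. Another Sulf1 promoter region (chr1:12692957-12693492) had 3.17 and 4.19 against 4.18 and 3.27. None of the 31 cell cycle promoters was called by coverage, and of 23 housekeeping genes 2 were higher (8.70%) and 1 lower (4.35%).

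All 73 promoters of ribosomal protein genes were measured, and 15 lost (20.5%) and 6 gained coverage (8.22%), beside 3.08% and 4.62% of all promoter regions, with 14 of the losses and none of the gains under all 3 scalings. Rpsa had 315 and 342 fragments in the wild-type control and 239 and 194 in the C59-treated libraries (log2 difference -0.62, adjusted p = 1.73e-05), and Rpl3 147 and 168 against 96 and 85 (log2 difference -0.81, adjusted p = 4e-05). A second Rpl3 promoter region (chr15:80083594-80084148) had 55 and 57 against 65 and 54 (log2 difference 0.07), with folds of 4.07 and 3.81 against 6.76 and 6.15 (adjusted p = 0.235). The groups did not overlap at Rpsa or at the first Rpl3 region. The elongation factor gene Eef1a1 fell as well, from 425 and 441 to 342 and 305 (log2 difference -0.43, adjusted p = 0.000511). Without 1 library, between 10 and 16 members were lower. No member passed by fold. The expected coverage was lower at 32 of 73 and higher at 3, beside 12.1% and 11.8% of all promoter regions.

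β-Catenin occupancy in wild-type buds, read from separate libraries, was compared with the change in H3K27ac. Of 16193 wild-type β-catenin consensus summits 4337 lay in an H3K27ac region, and 1.12% of all lay inside a β-catenin region of the C59-treated consensus. Of the compared regions 1516 promoter (12.5%) and 1458 distal regions (27.5%) held a summit. The median log2 fold of promoter regions with a summit exceeded that of regions without one by 0.126 and 0.129 in the wild-type control and by 0.149 and 0.186 in the C59-treated libraries (gap 0.04, exact p = 0.33, the smallest the test allows). At distal regions the excess was 0.148 and 0.159 against 0.188 and 0.193 (gap 0.04, exact p = 0.33). Both treated values exceeded both control values at 34.2% of promoter regions with a summit and 25.2% without one, and both were lower at 12.9% and 18.3%. By coverage the gaps shrank to 0.021 and 0.0021. Calls of lower coverage were 3.43% with and 3.03% without a summit at promoter regions, and 1.78% and 0.989% at distal regions. Calls of higher coverage were also more common with a summit, at 6.40% against 4.36% at promoter regions and 5.08% against 3.70% at distal regions.

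Zdhhc23, a palmitoyltransferase gene with lower transcripts at 6 h, had promoter folds of 4.88 and 5.41 in the wild-type control and no peak in either C59-treated list. Of the 232 RNA cluster A genes 4 had this pattern (Evx1, Gldn, Zdhhc23 and H2-Q7) and 0 the reverse. Of the 493 cluster B genes these were 7 and 2, beside 258 and 118 of all 15362 promoter regions. In both clusters the share called in the wild-type control only is near that of all promoter regions, although genes are set against regions. Evx1, a homeobox gene of the distal limb, had folds of 3.795 and 3.86, near the limit of calling. β-Catenin summits lay in 9.46% of the distal regions called in the wild-type control only and in 6.51% of those called after C59 only. The share was 27.5% at the distal regions in all lists. The former were narrower, with median widths of 376 and 383 bp against 746 bp. Their median folds were also lower, at 3.59 and 3.52 against 4.76. A summit counted only inside a region, and whether the shares differ at equal width or fold was not tested.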

How the data were processed

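H3K27ac ChIP-seq libraries of forelimb buds (2 DMSO, 2 C59) were compared from the 4 replicate and 2 consensus peak lists. Per the paper, adapters were cut by the authors with cutadapt, Bowtie2 2.4.5 aligned the reads to mm10, alignments of quality under 30 were dropped, and macs2 2.2.7.1 ran on the ChIP library alone. For the consensus lists they removed duplicates with Picard 2.27.4 and sampled libraries to equal size. Each deposited row holds a fold enrichment, which is a ratio of coverage to expected coverage, and a −log10 p-value and q-value per the deposited macs2 lists. The H3K27ac consensus lists were used as an alternative only, and the β-catenin consensus lists to mark regions with a β-catenin summit.

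Summit coverage and expected coverage were solved from the fold and −log10 p, which succeeded for 100% of the rows. Coverage is a count of fragments at 1 position, and depth sets its precision: a distal summit had about 24 to 29 fragments. TSSs came from GENCODE M21 (132629 positions). Log2 values were centred on the library median and fitted with limma 3.58.1 (R 4.3.3) with a trended prior and Benjamini-Hochberg adjustment over all 17475 regions, after a check on simulated data. The labels call the samples replicates and the paper names pools of buds, and with 2 per group p-values rest on little spread. Replicate numbers are shared between groups but nothing ties the samples of 1 number.

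Regions and gene lists were chosen with earlier results of these data known. Named by rule were 9 landscape genes, the 10 regions of smallest p or largest change per direction and class, the 4 members of each list with the largest difference in fold, and list members called in 1 treatment only; those that bear on the pathways are described. Other regions were named after their values were seen, and a few list members are not reported here. The alternatives were other scalings and measures, stricter lists, other region and TSS definitions, the replicate block and each library left out. RefSeq sequence tables were not used, and windows were read from GRCm38.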

Additional observations from a re-analysis of the deposited data

How the results depend on the processing

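Regions called higher and lower by fold numbered 1 and 1 without centring, 2 and 2 after quantile normalization, 0 and 0 with the mean fold over summits or without the trended prior, 4 and 4 from rows with a −log10 q of at least 5, 3 and 2 from rows with a fold of at least 4 and 0 and 0 on chromosomes 1 to 19, against 2 and 1. With the replicate block they were 70 and 55, and by coverage 807 and 480. Deviations of same-numbered libraries correlated at 0.0102 (fold) and -0.00357 (coverage), which does not show whether they shared a litter or a day. Without 1 library there were 3 to 24 higher and 1 to 17 lower. Summit coverage gave 778 and 439, and expected coverage 1973 and 1635. By coverage, 208 to 437 were higher and 119 to 285 lower without 1 library, lowest without the first DMSO library, 202 and 241 after quantile normalization and 116 and 634 over the background. The distal median difference was 0.108 by coverage, and the promoter minus distal gap -0.13 by coverage, -0.0123 from rows with a fold of at least 4 and -0.0155 in the consensus lists. The β-catenin gap at promoter regions was 0.0211 by coverage and 0.00792 for summits with a core. At distal regions it was 0.00208 by coverage, 0.00759 with the mean fold, 0.0159 with intersected regions, 0.0124 and 0.0148 with the stricter lists, 0.0306 with a promoter limit of 2.5 kb, 0.0309 with protein-coding TSSs and -0.0206 for summits with a core. Twist2 reversed, from a fold difference of 0.08 to a coverage difference of -0.41 (adjusted p = 0.0276). Of 106 single-region differences, 44 newly passed by coverage and 38 with the replicate block. The cause of these changes was not tested. All 3 fold calls kept their direction in every setting, but missed the threshold with the mean fold and without the trended prior, and Hist1h2al also without centring and on chromosomes 1 to 19. Depth limits weak regions: a distal summit rests on about 25.5 fragments, so that small changes there are not detectable.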

Other observations

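Expected coverage, the 10-kb neighbourhood average, was lower after C59 at several loci whose summits were not named above. It fell from 6.02 and 6.48 to 4.01 and 3.24 fragments at Osr2, a limb and joint transcription factor gene (log2 difference -0.82), and from 20.3 and 21.0 to 15.5 and 11.9 at a region 2.05 kb from the TSS of Cyp26b1, which encodes a retinoic acid degrading enzyme (-0.63). The lincRNA promoter 9430024E24Rik, on the same side of Lmx1b as the distal region described, had 17.2 and 18.6 against 11.8 and 10.03 (-0.74). Osr2 and 9430024E24Rik also lost summit coverage, from 51 and 47 to 30 and 21 and from 63 and 91 to 47 and 36 fragments. These loci were chosen after their values were seen.

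The lowest differences in expected coverage include loci of non-coding snoRNA host genes. The promoters of Zbtb37/Gas5, 1110038B12Rik and Znfx1, which neighbours Zfas1, had log2 differences of -1.08, -1.07 and -0.71. At 1110038B12Rik summit coverage fell with it, from 239 and 262 to 142 and 121 fragments, so that its folds of 10.8 and 11.9 against 11.6 and 12.0 overlapped. In the other direction the neighbourhood of Mecomos rose from 5.91 and 6.01 to 14.5 and 13.3 fragments (1.19) and that of a region 86.3 kb from the growth factor gene Ptn from 4.84 and 4.62 to 8.51 and 8.32 (0.81).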
